A study of Mus musculus with 8 samples.

Results

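The type I interferon response genes described here are 46 effectors and sensors that cells switch on after interferon binds its receptor, listed by symbol without the Gbp, Irf, Stat, Trim and Slfn families. Members were taken as the probes whose gene name on the array equals a listed symbol. Of the 46 listed genes, 45 had a probe, all but Ifi205, and all 45 passed the filter on dim probes, out of 26528 genes that passed it and 34844 gene names on the array. They were measured by 68 kept probes of 39411.

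RNA was measured on 8 one-colour expression arrays, in which labelled RNA binds short DNA probes and a scanner reads the brightness of each spot. The bone marrow of every group came from mice on a B6.Cg background with the transgene CAG-DsRed*MST, so every group shares it. This transgene is a red fluorescent protein under the broadly active CAG promoter. Control macrophages (2 arrays) were grown for 7 days with M-CSF, the growth factor of macrophages, and left in control medium. IL-4 macrophages and LPS macrophages (2 arrays each) were grown the same way and received for 24 hours either interleukin-4, the cytokine of alternative activation, or lipopolysaccharide, a bacterial cell wall product that triggers classical activation. Colony cells (2 arrays) grew from marrow plated for 7 days on an endothelial cell layer in a medium for blood stem cells, with neither IL-4 nor LPS. Whether both samples of a group are separate animals or cultures is not labelled, so every p-value measures only the spread between these samples, which may be technical. The source of the endothelial layer, and whether it was taken off before extraction, are not labelled either. Whether the colony RNA includes cells of that layer is therefore not known. The substrate and the medium of the colony cells differ together from those of the macrophages.

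Type I interferons are secreted proteins, chiefly interferon beta and the interferon alphas, that bind a receptor made of the IFNAR1 and IFNAR2 chains. The receptor's kinases activate transcription factors that bind a short element rich in GAAA repeats near the start of target genes. The proteins made from these targets degrade or sense viral RNA, trap particles, tag proteins and dampen the signal again. In macrophages, LPS reaches this pathway through the receptor TLR4 and interferon beta that the cells themselves release.

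Levels are given as the log2 signal relative to the 75th percentile of the array, so 0 is the signal of that percentile and a step of 1 is a doubling. The number of arrays limits their precision. The median level of the 45 members was 2.80 and 2.83 on the control arrays, 1.94 and 1.95 with IL-4, 5.97 and 6.14 with LPS, and 1.37 and 1.42 in colony cells. LPS macrophages were therefore highest and colony cells lowest, and the arrays of no 2 groups overlapped in this median. By group means, 29 members were ordered LPS, control, IL-4, colony cells from high to low, 12 had colony cells above IL-4 but below control, 2 (Isg20 and Ifi44) had colony cells above control, and 2 (Samhd1 and Nmi) had IL-4 above control. By the probe that represents each gene, all 45 were highest in LPS macrophages, and all 45 were well above background on all 8 arrays with no saturated spot. The orders of group means were not counted over all genes.

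**Figure D1:**
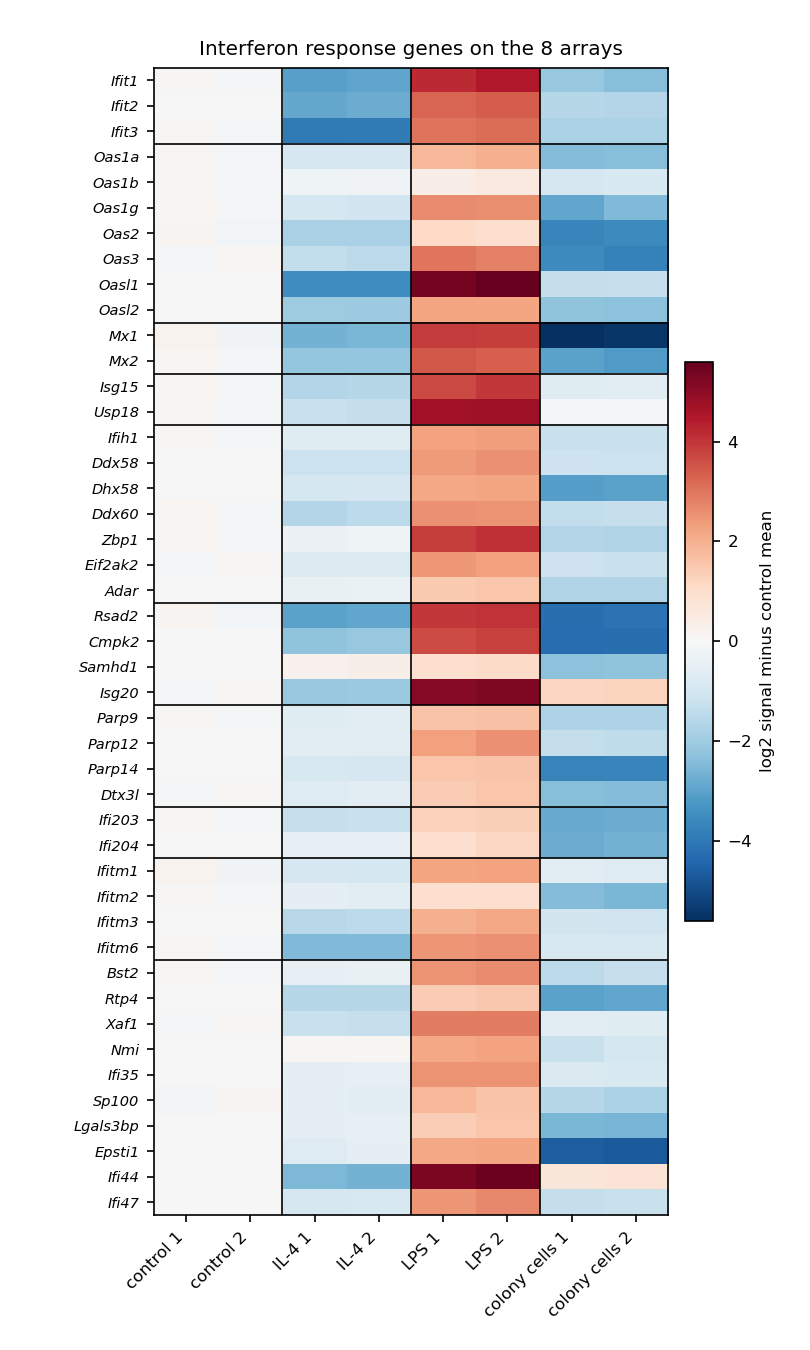
Log2 signal of the 45 members (rows, grouped by role) on the 8 arrays (columns), each minus the gene's mean over the 2 control arrays; red is above and blue below that mean. The LPS columns are red for every member, up to 5.46 for the mean of Oasl1, and the colony columns reach -5.57 for the mean of Mx1 while Isg20 and Ifi44 stay red.

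The interferon-stimulated response element was searched in promoter windows from RefSeq on build GRCm38.p6, which run from 250 bases before to 50 bases after a transcript start. A window was held for 35 of the 46 members (42 windows in all). The repeat GAAA, any 2 bases, GAAA, searched on both strands, was present in 16 of the 42 member windows (38.1%) and in 1131 of 32851 windows of all genes (3.44%). The longer form, the same repeat followed directly by CT, was present in 8 member windows (19.05%) and in 0.271% of all windows. The motif TTCNNNGAA, the core of the site for STAT dimers, was present in 10 member windows (23.8%) against 8.30% of all windows. A match describes letters only, and was not tested as a binding site. The stretches below run from 10 bases before the first match to the base before the transcript start, 5′ to 3′ on the gene's strand. For Ifit3, Oas1a and Ddx60 that start lies inside the RefSeq span of the gene. Part or all of their stretches therefore lies within the gene. They are shown for some of the members that hold a match before the start, so having the match was a condition of being shown. Capitals mark the repeat on either strand, which on the opposite strand reads TTTC, any 2 bases, TTTC, and overlapping matches run together.
Ifit1, chr19:34640775-34640888, plus strand: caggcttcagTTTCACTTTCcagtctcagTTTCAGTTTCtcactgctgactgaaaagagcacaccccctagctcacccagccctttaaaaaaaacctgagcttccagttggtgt
Ifit3, chr19:34583363-34583528, plus strand: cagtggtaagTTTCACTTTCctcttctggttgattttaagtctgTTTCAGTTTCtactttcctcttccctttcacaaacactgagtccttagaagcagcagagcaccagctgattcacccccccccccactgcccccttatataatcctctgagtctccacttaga
Isg15, chr4:156200819-156200906, minus strand: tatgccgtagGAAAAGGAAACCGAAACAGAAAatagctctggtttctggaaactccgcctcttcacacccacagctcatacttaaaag
Ddx60, chr8:61928024-61928086, plus strand: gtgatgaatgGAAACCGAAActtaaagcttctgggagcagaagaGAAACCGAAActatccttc
Rsad2, chr12:26456453-26456582, minus strand: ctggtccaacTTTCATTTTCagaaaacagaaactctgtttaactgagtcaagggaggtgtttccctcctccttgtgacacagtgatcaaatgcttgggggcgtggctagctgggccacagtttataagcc
Oas1a, chr5:120907526-120907555, minus strand: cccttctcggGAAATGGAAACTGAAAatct
Oas1g, chr5:120887614-120887641, minus strand: cccttctcggGAAATGGAAACTGAAAat
Isg15 holds 3 overlapping matches, and Ifit1, Ifit3 and Ddx60 hold 2 separate ones each. Oas1a and Oas1g, neighbouring copies of one gene, carry the same matched letters at almost the same distance from their starts. The windows of Isg20, Ifi44, Oasl1, Oasl2 and Cmpk2 hold no such repeat, which says only that these letters are not in those windows.

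The share of spots well above background was 72.2% on LPS replicate 2 and 62.4% to 67.5% on the other 7, and LPS replicate 2 also had 105 uneven spots against 0 to 5 elsewhere. Each member's call in LPS macrophages was therefore also made without that array. The labelled macrophages carried macrophage markers: the 9 tested of 10 listed (among them Csf1r, Cd68 and Lyz2) were well above background on all 8 arrays, and their summed level was 10.6 to 11.0 on the log2 scale in macrophages and 7.24 to 7.27 in colony cells. The leukocyte markers (9 tested of 10 listed, among them Ptprc and Laptm5) summed to 10.2 in control and IL-4 macrophages, 10.72 to 10.91 with LPS, and 7.15 to 7.16 in colony cells. Mesothelial markers (6 of 6 tested) summed to between -4.79 and -2.16 in macrophages, where Upk1b, Wt1 and Lrrn4 were not well above background, and to 8.52 and 8.57 in colony cells. The endothelial markers (6 tested of 8 listed) summed to 3.73 and 3.83 in colony cells and to between 4.49 and 5.97 in macrophages. In colony cells 5 of the 6 were well above background, all but Cdh5, and Tek, which was not well above background in any macrophage group, was at least 4.07-fold above control. Fibroblast markers (7 of 7 tested) summed to 7.93 and 7.96 in colony cells and to between -1.70 and 0.27 in macrophages, where Pdgfra and Thy1 were not well above background. Mast cell markers (6 of 6 tested) summed to 2.48 on both colony arrays and to between -1.88 and -0.44 in macrophages, where Cpa3 and Cma1 were not well above background. Neutrophil markers (8 of 8 tested) summed to 5.49 and 5.52 in colony cells and to between 5.28 and 5.83 in macrophages. Monocyte markers (3 tested of 4 listed) summed to 4.06 and 4.03 in colony cells, 1.68 to 2.83 in control and IL-4 macrophages, and 6.29 and 6.37 with LPS. In these bulk RNA samples, fewer cells of a type and less RNA per cell cannot be told apart.

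The comparison of LPS with control macrophages asks how far the bacterial stimulus had raised the response after 24 hours. All 45 members rose with LPS, 42 of them by at least 2-fold, where 28.9% of all 26528 genes rose (limma, p adjusted over all genes by Benjamini-Hochberg, under 0.05). Of all 26528 genes, 3194 were called and at least 2-fold higher. Their median log2 fold change was 2.43, against 0.07 for all genes. The changes ran from 0.47 for Oas1b to 5.46 for Oasl1, with standard errors of 0.06 to 0.16 and 2 arrays per group. Without LPS replicate 2, the LPS group is a single array assumed to vary like the other groups, and 45 of 45 were again called higher with a median of 2.37. Of all genes called in this comparison 52.8% were higher, against 42.5% after normexp background correction, 39.8% with median centring and 38.2% in the deposited value table, and under each of these at least 44 of 45 members were called higher. The arrays of the 2 groups did not overlap for any member, whereas 40.5% of all genes had both LPS arrays above both control arrays.

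The comparison of IL-4 with control macrophages asks what the alternative stimulus does to the same genes in the absence of a bacterial product. With IL-4, 41 members fell, 23 of them by at least 2-fold, and 0 rose, where 9.17% of all genes fell and 9.86% rose (limma, adjusted p under 0.05). Of all 26528 genes, 590 were called and at least 2-fold lower. Their median log2 fold change was -1.02, against -0.01 for all genes. The 4 members not called were Oas1b (-0.21), Zbp1 (-0.29), Samhd1 (0.29) and Nmi (0.09), with limma's adjusted p of 0.18, 0.14, 0.063 and 0.61. Of the 41 calls, 12 were lost under at least 1 of the 18 alternative settings, those of Adar, Bst2, Dtx3l, Ifi204, Ifi35, Ifitm1, Ifitm2, Lgals3bp, Oas1g, Parp12, Parp9 and Sp100. With IL-4 replicate 1 left out 31 members were called lower, and with median centring 35.

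Colony cells against control macrophages compare the cells grown from marrow on endothelium with unstimulated macrophages grown from marrow of the same strain. In colony cells 42 members were lower than in control, 36 of them by at least 2-fold, where 46.7% of all genes were lower. Of all 26528 genes, 5799 were called and at least 2-fold lower. Isg20 and Ifi44 were higher, where 24.7% of all genes were higher, and Usp18 was not called (limma, adjusted p under 0.05). The median log2 fold change was -1.69, against -0.35 for all genes, and 42 members lay below that all-gene median. Leukocyte and macrophage markers were lower in the same comparison, 9 of 9 in each list, with median log2 changes of -3.10 (from -4.40 to -1.60) and -3.73 (from -4.72 to -2.14). Markers of other cells were higher, namely 6 of 6 mesothelial, 6 of 7 fibroblast and 5 of 6 mast cell markers. On each control array only 1 of 6 mesothelial, 3 of 7 fibroblast and 2 of 6 mast cell markers were well above background. No median change is therefore given for these lists. Of 6 endothelial markers 1 was higher and 4 lower (median -0.75). Of 8 neutrophil markers 3 were higher and 1 lower (median 0.14), and of 3 monocyte markers 2 were higher and 1 lower (median 1.64). Among the members, 38 lay above the median leukocyte marker and 7 below it, and 19 lay above the least changed leukocyte marker. The part of these marker changes in the members' changes was not tested.

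The 3 comparisons share the control arrays. Read across them, 38 members were higher with LPS, lower with IL-4 and lower in colony cells. A further 4 (Oas1b, Zbp1, Samhd1 and Nmi) differed from this only in having no call with IL-4, 2 (Isg20 and Ifi44) in being higher in colony cells, and 1 (Usp18) in having no call there. The share of all genes with each of these joint patterns was not counted.

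**Figure D2:**
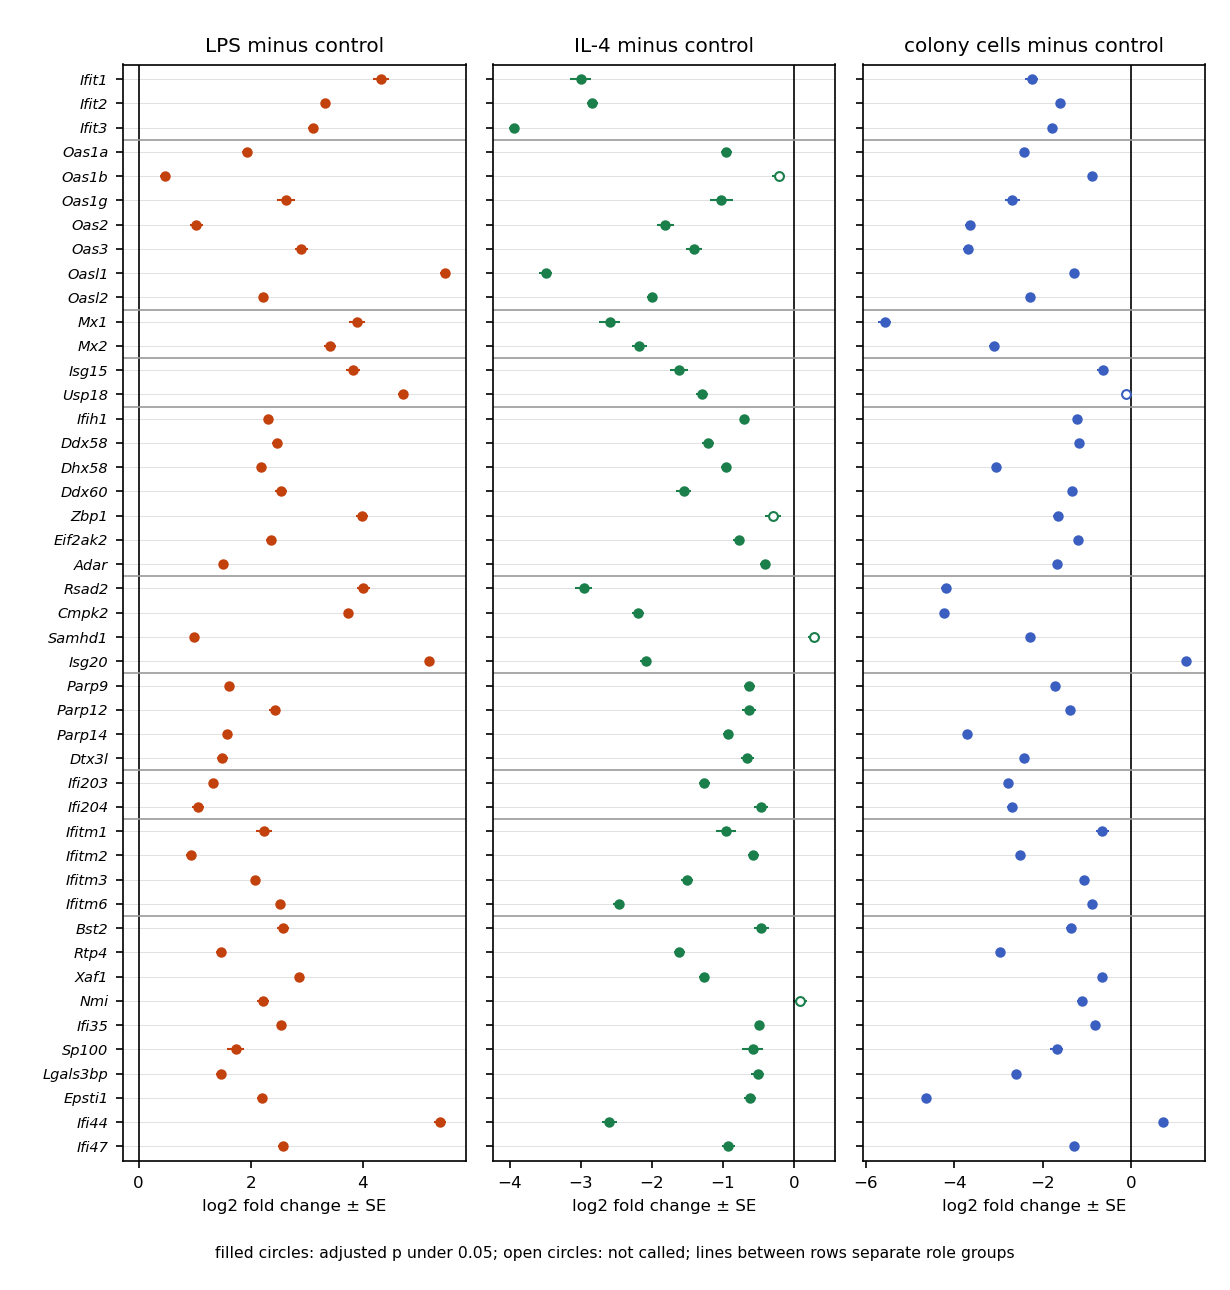
Log2 fold change with standard error (x axes, whose ranges differ between panels) of the 45 members (rows, grouped by role) in LPS macrophages, IL-4 macrophages and colony cells, each minus control, from 2 arrays per group. All 45 filled circles lie right of 0 with LPS, 41 lie left of 0 with IL-4, and 42 lie left and 2 right of 0 in colony cells.

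The Ifit genes encode proteins that bind foreign RNA ends and block translation, and lie together on chromosome 19 (Ifit1 at chr19:34640889-34650009, GRCm38.p6). All 3 rose with LPS and fell with IL-4 and in colony cells. Ifit1 read 1.72 and 1.62 on the control arrays, -1.38 and -1.28 with IL-4, 5.85 and 6.14 with LPS, and -0.44 and -0.72 in colony cells. Ifit3 read 3.96 and 3.83 in control, -0.06 and -0.03 with IL-4, 6.95 and 7.04 with LPS, and 2.10 and 2.12 in colony cells. For both genes the LPS arrays were highest, the IL-4 arrays lowest and colony cells between IL-4 and control, with no overlap. Ifit1 had the largest LPS change of the family at 4.32 ± 0.14, a 20.02-fold rise (limma, adjusted p = 9.7e-06). Ifit3 changed with IL-4 by -3.94 ± 0.08, or 15.4-fold, the largest fall of any member in that comparison (adjusted p = 1.8e-05). Ifit2 changed by 3.32, -2.84 and -1.62 with LPS, with IL-4 and in colony cells.

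The Oas genes encode enzymes that make 2′-5′ linked oligoadenylates when they bind double-stranded RNA, which in turn activate the nuclease RNase L. Oasl1 and Oasl2 are related proteins, and Oasl1 is known to restrain translation of Irf7. All 7 members rose with LPS and were lower in colony cells, and 6 fell with IL-4. Oasl1 read 2.04 and 1.98 in control, -1.48 and -1.48 with IL-4, 7.37 and 7.58 with LPS, and 0.69 and 0.74 in colony cells. Its 4 groups stood apart without overlap, and it had the largest LPS change of all members, 5.46 ± 0.09 (44.1-fold, limma adjusted p = 1.8e-06). With IL-4 it changed by -3.497 ± 0.09, the largest fall among the Oas genes.

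Oas3, the form with the greatest length, read 1.71 and 1.92 in control, 0.45 and 0.37 with IL-4, 4.79 and 4.65 with LPS, and -1.76 and -1.97 in colony cells. Here colony cells, not IL-4 macrophages, were the lowest group, with a log2 change from control of -3.68 ± 0.12 (12.9-fold, limma adjusted p = 3.6e-06). Oas2 behaved similarly, with -3.65 in colony cells and -1.81 with IL-4, but its LPS change was 1.03. Oas1a, Oas1g and Oasl2 changed with LPS by 1.93, 2.64 and 2.21, with IL-4 by -0.95, -1.02 and -2.001, and in colony cells by -2.41, -2.68 and -2.28. Oas1b, which RefSeq lists as a transcribed pseudogene in this reference strain, had the smallest LPS change, 0.47 ± 0.09. That call was lost with median centring, where it was 0.29 (adjusted p = 0.077), and another of its probes gave an LPS change of 1.86. The Oas1 copies are close in sequence, and a probe can bind RNA of more than 1 of them.

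Mx1 and Mx2 encode dynamin-like GTPases that block viral particles. RefSeq lists both as transcribed pseudogenes in the reference strain, C57BL/6, whose Mx proteins are not functional, so these levels describe transcripts. Mx1 read 2.53 and 2.15 in control, -0.29 and -0.22 with IL-4, 6.28 and 6.21 with LPS, and -3.32 and -3.12 in colony cells. The 4 groups did not overlap, and the log2 difference of colony cells from LPS, -9.47, was the largest of any member. Against control Mx1 changed by 3.90 ± 0.14 with LPS, -2.60 ± 0.14 with IL-4 and -5.57 ± 0.14 in colony cells, the last a 47.3-fold difference (limma, adjusted p = 1.7e-06). Mx2 changed in the same directions, by 3.42, -2.17 and -3.09.

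Isg15 is a ubiquitin-like tag joined to other proteins, and Usp18 is the enzyme that removes it and also blocks the interferon receptor. Isg15 read 5.15 and 4.91 in control, 3.38 and 3.45 with IL-4, 8.74 and 8.98 with LPS, and 4.33 and 4.43 in colony cells. Usp18 read 2.02 and 1.85 in control, 0.67 and 0.62 with IL-4, 6.62 and 6.67 with LPS, and 1.81 and 1.82 in colony cells. Both were highest with LPS and lowest with IL-4, and in both the colony arrays lay just under the control arrays. Usp18 rose 26.2-fold with LPS (4.71 ± 0.08, limma adjusted p = 2.0e-06), and its difference between colony cells and control, -0.12 ± 0.08, was not called (adjusted p = 0.22). Isg15 rose by 3.83 ± 0.12 with LPS and changed by -1.61 ± 0.12 with IL-4 and -0.65 ± 0.12 in colony cells.

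The nucleic acid sensors among the members are the helicases Ifih1 (MDA5), Ddx58 (RIG-I), their regulator Dhx58 (LGP2) and Ddx60, the Z-form nucleic acid sensor Zbp1, the translation-blocking kinase Eif2ak2 (PKR) and the RNA editing enzyme Adar. All 7 rose with LPS and were lower in colony cells, and 6 fell with IL-4. Zbp1 read 2.44 and 2.26 in control, 2.01 and 2.11 with IL-4, 6.22 and 6.45 with LPS, and 0.73 and 0.67 in colony cells. Its LPS change of 3.98 ± 0.11 was the largest of the sensors (limma, adjusted p = 5.6e-06), while its IL-4 arrays lay only just under the control arrays. A second, dimmer Zbp1 probe changed by 4.86 with LPS, -0.69 with IL-4 (limma, adjusted p = 0.0080 over all probes) and -0.52 in colony cells, so the absence of an IL-4 call holds for 1 of its 2 probes. Ddx60 read -2.04 and -2.27 in control, -3.79 and -3.62 with IL-4, 0.40 and 0.37 with LPS, and -3.53 and -3.45 in colony cells. It was the sensor that fell most with IL-4 (-1.55 ± 0.11), and its IL-4 and colony levels lay close together. Dhx58 read 2.41 and 2.35 in control, 1.40 and 1.46 with IL-4, 4.54 and 4.57 with LPS, and -0.70 and -0.63 in colony cells, where it was 8.27-fold under control (-3.05 ± 0.07, adjusted p = 1.1e-06). The other 4 sensors were closer together. Ifih1, Ddx58, Eif2ak2 and Adar rose with LPS by 2.30, 2.47, 2.35 and 1.51, and in colony cells changed by -1.23, -1.17, -1.20 and -1.69.

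Of the enzymes that act on nucleotides and RNA, Rsad2 (viperin) makes a chain-terminating nucleotide and its neighbour Cmpk2 is a nucleotide kinase of mitochondria. Both lie on chromosome 12, at chr12:26442743-26456452 and chr12:26469117-26479837 (GRCm38.p6). Rsad2 read 3.18 and 2.85 in control, 0.02 and 0.10 with IL-4, 6.98 and 7.07 with LPS, and -1.21 and -1.12 in colony cells. Cmpk2 read 2.42 and 2.36 in control, 0.15 and 0.25 with IL-4, 6.04 and 6.21 with LPS, and -1.87 and -1.82 in colony cells. The pair shared one order of groups, with colony cells lowest and no overlap. Against control Rsad2 changed by 4.01 ± 0.12 with LPS, -2.96 ± 0.12 with IL-4 and -4.18 ± 0.12 in colony cells, and Cmpk2 by 3.74, -2.19 and -4.23 ± 0.09 (18.8-fold, limma adjusted p = 8.8e-07).

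Isg20, an exonuclease that degrades single-stranded RNA, went the other way in colony cells. It read 1.92 and 2.02 in control, -0.14 and -0.09 with IL-4, 7.08 and 7.21 with LPS, and 3.19 and 3.24 in colony cells. Colony cells thus ranked second behind LPS, with no overlap between groups. The changes against control were 5.18 ± 0.08 with LPS (36.2-fold), -2.08 ± 0.08 with IL-4 and 1.24 ± 0.08 in colony cells (2.37-fold, limma adjusted p = 4.6e-05). Samhd1, which breaks down the building blocks of DNA, rose with LPS by 0.99 ± 0.08 and changed in colony cells by -2.28 ± 0.08. Its 2 other kept probes gave larger LPS changes, 2.01 and 2.26, and colony changes of -2.57 and -2.39. With IL-4 the representing probe read 5.93 and 6.02 against 5.72 and 5.65 in control, a difference of 0.29 that was called higher in 3 alternative settings only.

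The Parp genes encode ADP-ribosyltransferases, and Dtx3l is the ubiquitin ligase that partners Parp9. All 4 rose with LPS and fell with IL-4 and in colony cells. Parp12 read 1.73 and 1.68 in control, 1.08 and 1.08 with IL-4, 4.01 and 4.26 with LPS, and 0.36 and 0.29 in colony cells. Parp14 read 5.08 and 5.13 in control, 4.202 and 4.144 with IL-4, 6.65 and 6.72 with LPS, and 1.37 and 1.42 in colony cells. Parp12 had the largest LPS change of the group (2.43 ± 0.10), and Parp14 the largest fall in colony cells, -3.71 ± 0.07 (13.1-fold, limma adjusted p = 7.5e-07). With IL-4 the 4 changes ran from -0.93 for Parp14 to -0.625 for Parp9. The IL-4 calls of Parp12 and Dtx3l were lost without 1 IL-4 array (Parp12 without either, adjusted p = 0.066 and 0.070; Dtx3l without replicate 1, adjusted p = 0.061), and that of Parp9 with the mean of all its probes (-0.38, adjusted p = 0.39). Parp9 and its partner Dtx3l rose with LPS by 1.61 and 1.49 and changed in colony cells by -1.72 and -2.41.

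Ifi203 and Ifi204 belong to the Ifi200 family of DNA-binding proteins on chromosome 1. Ifi203 read 4.34 and 4.22 in control, 2.9996 and 3.051 with IL-4, 5.59 and 5.61 with LPS, and 1.47 and 1.51 in colony cells. It was highest with LPS and lowest in colony cells, with changes against control of 1.32 ± 0.07, -1.26 ± 0.07 and -2.79 ± 0.07 (limma, adjusted p from 1.7e-06 to 0.00040). The log2 changes of its kept probes in colony cells lay more than 1 apart, with the same sign, so the size of that change depends on the probe. Ifi204 changed by 1.06, -0.46 and -2.70. The family is repetitive, so a probe can bind RNA of a related gene.

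The Ifitm genes encode small membrane proteins that hinder fusion of viruses with cells. Ifitm6 read 1.52 and 1.37 in control, -1.03 and -1.01 with IL-4, 3.92 and 4.02 with LPS, and 0.56 and 0.54 in colony cells. Ifitm2 read 5.45 and 5.36 in control, 4.86 and 4.82 with IL-4, 6.34 and 6.32 with LPS, and 2.96 and 2.84 in colony cells. The pair parted in the lowest group, which was IL-4 for Ifitm6 and colony cells for Ifitm2. Ifitm6 had the largest changes of the family with LPS (2.53 ± 0.08) and with IL-4 (-2.46 ± 0.08), whereas Ifitm2 had the largest fall in colony cells (-2.50 ± 0.08, limma adjusted p = 3.0e-06). Ifitm1 and Ifitm3 rose with LPS by 2.23 and 2.08, and in colony cells changed by -0.66 and -1.07.

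The remaining 10 members rose with LPS without exception, from 1.46 for the receptor transporter Rtp4 to 5.38 for Ifi44. Ifi44, which is named for its induction by interferon, read 0.06 and -0.0044 in control, -2.51 and -2.64 with IL-4, 5.28 and 5.53 with LPS, and 0.72 and 0.78 in colony cells. Like Isg20 it ranked second in colony cells, with a change of 0.72 ± 0.11 against control (1.65-fold, limma adjusted p = 0.0015). With LPS it rose 41.7-fold (5.38 ± 0.11), and with IL-4 it fell by 2.60 ± 0.11.

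Epsti1 read -0.50 and -0.56 in control, -1.24 and -1.06 with IL-4, 1.64 and 1.69 with LPS, and -5.14 and -5.21 in colony cells. Colony cells stood far under the other groups, 25.01-fold under control (-4.64 ± 0.09, limma adjusted p = 7.3e-07). Epsti1 and Mx1 were the 2 members below the most reduced leukocyte marker, Cd48 at -4.40. The tethering protein Bst2, which holds budding virus particles at the cell surface, changed by 2.57 with LPS, -0.45 with IL-4 and -1.36 in colony cells. Its IL-4 call and that of the nuclear body protein Sp100 (-0.58) were lost under 11 and 12 of 18 alternative settings.

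Nmi and Ifi35, which bind each other, rose with LPS by 2.21 and 2.54, and in colony cells changed by -1.11 and -0.83. The secreted protein Lgals3bp, the GTPase Ifi47 and Rtp4 rose with LPS by 1.47, 2.58 and 1.46, changed with IL-4 by -0.51, -0.92 and -1.61, and in colony cells by -2.59, -1.28 and -2.96. Sp100 rose with LPS by 1.73 and changed in colony cells by -1.68, while its dimmer probe gave 0.65 and -0.11. With IL-4 that probe gave 0.19 against -0.58, so Sp100 was the 1 member whose probes had opposite signs in that comparison.

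Xaf1, which binds an inhibitor of cell death, gave opposite signs in colony cells by probe. The probe that represents it, at chr11:72122169-72122228 (mm9, plus strand), read 2.90 and 3.02 in control and 2.36 and 2.26 in colony cells, a change of -0.65 ± 0.08. A second, dimmer probe at chr11:72127175-72127234 (mm9, plus strand) read -2.61 and -2.95 in control and 2.35 and 2.19 in colony cells, a change of 5.05. With LPS the same probes changed by 2.87 and 0.55, and with IL-4 by -1.27 and -1.35. The direction for Xaf1 in colony cells therefore holds for 1 of its 2 probes. Of the 18 members with several kept probes, no other had opposite signs in colony cells.

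The comparison of colony cells with IL-4 macrophages sets side by side the groups in which most members were lower than in control. Relative to IL-4, 31 members were lower in colony cells and 11 were higher, where 47.3% of all genes were lower and 24.3% higher (limma, adjusted p under 0.05). The median log2 fold change was -0.92, against -0.37 for all genes. Leukocyte and macrophage markers were lower here too, 9 of 9 in each list, with medians of -3.09 and -3.40. Higher were 6 of 6 mesothelial, 6 of 7 fibroblast and 6 of 6 mast cell markers. Of 8 neutrophil markers 7 were higher and 1 lower (median 1.05), and of 3 monocyte markers 2 were higher and 1 lower (median 3.91). Of 6 endothelial markers 1 was higher and 5 lower (median -0.76). The part of these markers in the result was not tested. The 11 higher members were Isg20 (3.33), Ifi44 (3.32), Oasl1 (2.20), Ifit3 (2.16), Ifitm6 (1.57), Ifit2 (1.22), Usp18 (1.17), Isg15 (0.97), Ifit1 (0.75), Xaf1 (0.61) and Ifitm3 (0.43). The share of members that were higher was close to that of all genes. Lower in colony cells were both Mx genes, 6 of 7 Oas genes, all 4 Parp and Dtx3l genes and both Ifi200 genes, with Epsti1 (-4.03), Mx1 (-2.97), Parp14 (-2.78) and Samhd1 (-2.57) lowest. The calls of Ifi35, Ifi47, Ifitm3, Oas1b and Oasl2 were lost under at least 1 of the 18 alternatives, and with quantile normalization Oasl2 and Ifi47 turned to 0.020 and 0.044 (adjusted p = 0.81 and 0.55). Ddx58 (0.03), Ddx60 (0.22) and Ifitm1 (0.30) were not called, with limma's adjusted p of 0.75, 0.11 and 0.11.

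**Figure D3:**
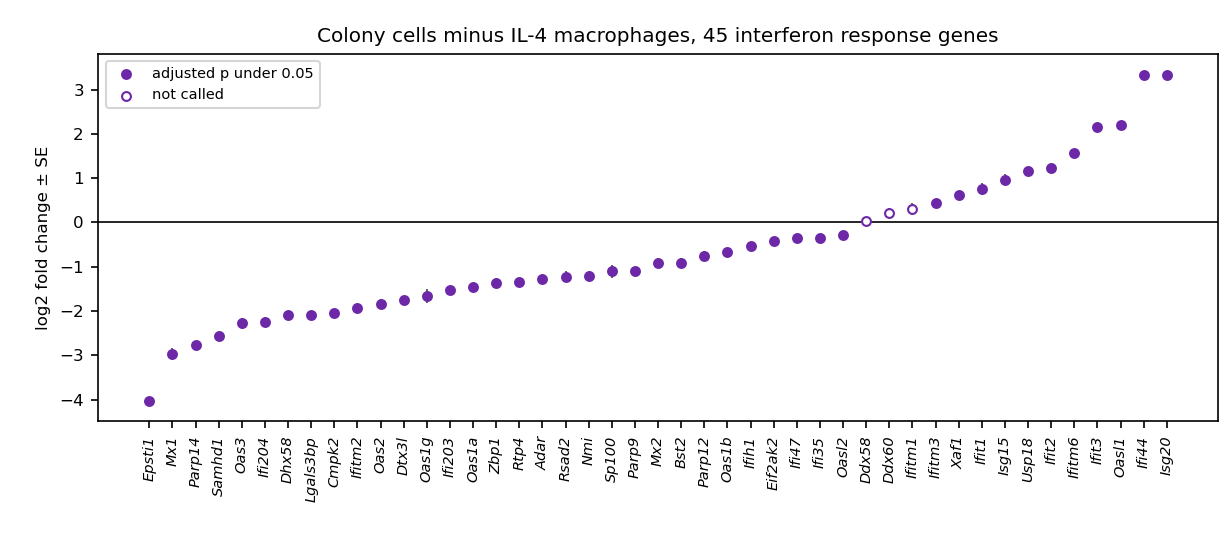
Log2 fold change with standard error (y axis) of the 45 members (x axis, sorted) in colony cells minus IL-4 macrophages, from 2 arrays per group. The points run from -4.03 for Epsti1 to 3.33 for Isg20, with 31 called members below 0, 11 above it and 3 open circles not called.

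Against LPS macrophages, both other groups were lower throughout by the probe that represents each gene. With the mean of its probes, Xaf1 was higher in colony cells than with LPS, by 0.49. With IL-4 45 of 45 members were lower than with LPS, where 26.8% of all genes were lower, by a median of -3.19 and at most -8.96 for Oasl1. In colony cells 45 of 45 were lower than with LPS, where 49.7% of all genes were lower, by a median of -4.07 and from -1.36 for Oas1b to -9.47 for Mx1. Of all genes called between IL-4 and LPS 49.0% were higher with IL-4, against 63.8% with median centring and 66.3% in the deposited value table, and under both 45 of 45 members were lower. All 45 differences were at least 2-fold in colony cells and 43 of 45 with IL-4 (limma, adjusted p under 0.05). Of all 26528 genes, 7372 were called and at least 2-fold lower in colony cells than with LPS, and 3152 with IL-4.

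**Figure D4:**
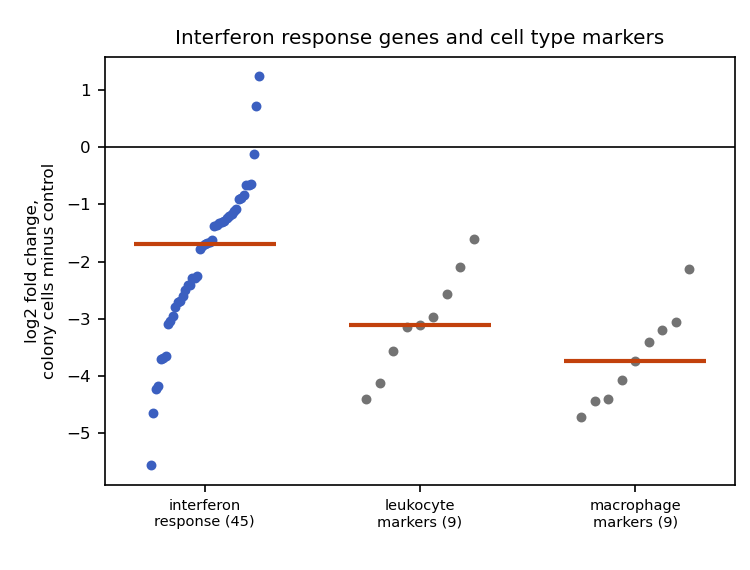
Log2 fold change of colony cells minus control (y axis) for the 45 members and for 9 leukocyte and 9 macrophage markers; each point is a gene and each bar the median of its list. The member median of -1.69 lies above the medians of -3.10 and -3.73, and the members spread from -5.57 to 1.24.

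Of the ligands, interferon beta was highest in LPS macrophages. Its gene, Ifnb1, read -4.88 and -5.89 in control, where 1 of 2 arrays was well above background, and 0.10 and -0.06 with LPS. On the IL-4 arrays (-8.25 and -8.08) and the colony arrays (-8.47 and -8.27) it was not well above background. It rose with LPS by 5.41 ± 0.32 (limma, adjusted p = 7.3e-05), and control was at least 1.63-fold above IL-4 and at least 1.91-fold above colony cells. Such a bound sets the brighter group against the lowest signal well above background, or the dim signal where that is higher. Of the 12 interferon genes that passed the filter (of 21 listed), 3 rose with LPS, 1 rose and 1 fell with IL-4, and 11 were lower in colony cells. Over all genes 28.9% rose with LPS, 9.86% rose and 9.17% fell with IL-4, and 46.7% were lower in colony cells, so the share of these genes that rose with LPS was no larger than that of all genes.

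Most of the 17 receptor and signalling genes of the list moved as the members did with LPS and in colony cells, and fewer did with IL-4. With LPS 14 rose and 1 fell (median 1.15), with IL-4 3 rose, 8 fell and 6 were not called (median -0.32), and in colony cells 2 were higher and 13 lower (median -1.53). Over all genes 28.9% rose with LPS (median 0.07). With IL-4 9.86% of all genes rose and 9.17% fell (median -0.01). In colony cells 24.7% of all genes were higher and 46.7% lower (median -0.35). The receptor chain Ifnar1 read 4.201 and 4.250 in control, 3.78 and 3.84 with IL-4, 5.001 and 4.997 with LPS, and 2.05 and 2.15 in colony cells, and Ifnar2 changed alike by -0.32, 1.18 and -2.06 with IL-4, with LPS and in colony cells. Irf7, the factor that amplifies interferon production, read 2.15 and 2.31 in control, 0.13 and 0.11 with IL-4, 6.79 and 6.56 with LPS, and -0.52 and -0.63 in colony cells, a change with LPS of 4.45 ± 0.11 (limma, adjusted p = 4.0e-06). The transcription factors Stat2 and Irf9, which act on the promoters of interferon targets, rose with LPS by 2.19 and 0.60, changed with IL-4 by -0.73 and -0.62, and in colony cells by -1.35 and -0.97.

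Socs1 and Socs3, inhibitors of the list, did not share the members' main order, whereas the phosphatase Ptpn6 did. Another phosphatase of the list, Ptpn11, did not. It was highest in colony cells (4.90 and 4.89), with 4.54 and 4.68 with LPS and 4.24 and 4.27 in control. Socs1, which blocks the receptor's kinases, read -0.61 and -0.87 in control, 3.24 and 3.45 with IL-4, 4.27 and 4.38 with LPS, and -0.63 and -0.58 in colony cells. It rose with IL-4 by 4.09 ± 0.12 (limma, adjusted p = 5.4e-05) and with LPS by 5.07, and its colony change of 0.14 was not called. Socs3, an inhibitor of STAT3 signalling above all, rose with LPS by 6.81, changed with IL-4 by -0.86 and was higher in colony cells by 3.31 ± 0.08. Ptpn6 changed by 1.15 with LPS and -0.44 with IL-4 and had the lowest change of the list in colony cells, -3.85, and the interferon gamma receptor chain Ifngr1 was the 1 gene that fell with LPS (-1.64).

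Upstream sensing genes and further interferon targets completed the pathway. Of 16 sensing genes, 12 rose and 4 fell with LPS, 2 rose and 5 fell with IL-4, and 15 were lower in colony cells. With LPS 7661 of all 26528 genes rose and 6845 fell. With IL-4 9.86% of all genes rose and 9.17% fell, and 46.7% were lower in colony cells. The shares of sensing genes that fell with LPS and that rose with IL-4 were thus near those of all genes. The largest LPS changes were those of the double-stranded RNA receptor Tlr3 (2.21) and the adaptor Myd88 (2.06), and Cd14, the co-receptor for LPS, changed with IL-4 by -2.27 and in colony cells by -3.41. Tlr4, the receptor for LPS, changed with LPS by -0.85 and in colony cells by -1.43. Of 30 further targets, 28 rose with LPS (median 2.54), 3 rose and 19 fell with IL-4 (median -0.73), and 5 were higher and 22 lower in colony cells (median -1.16). Over all genes 28.9% rose with LPS, 9.86% rose and 9.17% fell with IL-4, and 24.7% were higher and 46.7% lower in colony cells. The share of these targets that rose with IL-4 was therefore close to that of all genes, and the share higher in colony cells was below it. Cxcl10, a chemokine that draws T cells, changed by 5.17 with LPS, -4.23 with IL-4 and -5.24 in colony cells. The 5 higher in colony cells were Slfn1 (2.08), Gbp4 (0.82), Gbp6 (0.75), Tgtp1 (0.67) and Gbp3 (0.38), of which Slfn1 also had the largest rise of the list with LPS (7.84).

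Members whose window held the GAAA repeat were set beside those whose window did not, as a description. With LPS the median change was 2.54 over 15 members with the repeat and 2.43 over 19 without. With IL-4 the medians were -1.26 and -0.92, and in colony cells -1.78 and -1.38. In each comparison the ranges of the 2 sets overlapped. The 2 members higher in colony cells, Isg20 and Ifi44, and the member with the largest LPS change, Oasl1, were all in the set without it.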

How the data were processed

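RNA was labelled with Cy3 per the labels' protocols and read on 1 slide in 1 scan. The deposited scanner files hold spot signals as intensity, made per the file headers by Agilent Feature Extraction 10.7.3.1, background-subtracted and detrended but not scaled between arrays, and other columns of 0 or 1 that per the file headers mark saturated, uneven or outlying spots and those well above background. A value table on the log2 scale was deposited too. Each column matched its array's scanner log2 signal less 1 constant (Pearson r over 34119 probes at or above 0.999964), and column medians were 2.53 to 2.96. That constant and the authors' choice of probes are not given in the sources used here, and Partek 6.4 and RMA stand in the submitters' processing notes with no role. All value columns used were matched to a sample.

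Here, uneven and outlying spots were left out, the log2 of the background-subtracted signal was taken, each array's 75th percentile was subtracted, and spots of a probe were averaged. Probes were kept where both arrays of 1 group or more read well above background, and a gene was represented by its kept probe with the highest mean. Gene names are those of the array files, and probe positions are theirs, on mm9; with no annotation of that build used, the part of a gene that a probe covers is not stated. The 46 members were all found in the RefSeq gene table, and 35 had a promoter entry, both on GRCm38.p6. limma 3.58.1 in R 4.3.3 fitted 1 model with 4 group means over 8 arrays (4 residual and 1.57 prior degrees of freedom), tested on simulated data first, and calls took p under 0.05 after Benjamini-Hochberg adjustment over all genes. Values after ± are standard errors. The smallest two-sided p that an exact permutation of 2 arrays against 2 allows is 0.333, so calls rest on variances shared across genes and groups.

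The members and gene lists were chosen with earlier results of these data known. Array values are given for the member of each role group with the largest called change in each comparison with control, and for members called against the majority. Pathway lists are given by counts and up to 4 called genes of the largest change per list and comparison. The main parts of the receptor complex, Tlr4, Ptpn11 and the 5 targets higher in colony cells were added after their values were seen. Alternatives were normexp with an offset of 50, quantile normalization, median centring, the deposited values, both filters on dim probes, the mean of all probes, an intensity trend, a replicate block, only the arrays compared, and each array left out. Same-numbered arrays of different groups did not deviate together (correlations of -0.16 to 0.05 across genes), so the numbers were not taken as pairs. A planned comparison of protein sequences was not run, and only promoter sequence was used here.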

Additional observations from a re-analysis of the deposited data

How the results depend on the processing

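The counts of called members stayed within 1.5 times their values under all 18 alternatives. Of the calls, 44 of 45 held throughout for LPS against control (all but Oas1b), 29 of 41 for IL-4 against control, 43 of 44 for colony cells against control (all but Xaf1), 45 of 45 for IL-4 against LPS, 37 of 42 for colony cells against IL-4 and 44 of 45 for colony cells against LPS (all but Xaf1). With an array left out, the counts were 45 for LPS against control, 31 to 41 for IL-4 against control, 44 for colony cells against control and 41 to 43 for colony cells against IL-4, and where a group kept 1 array that array was assumed to vary like the others. The replicate block gave 45 called members for LPS, 39 for IL-4 and 44 for colony cells against control, and 42 for colony cells against IL-4; it lost the IL-4 calls of Bst2 and Sp100 and changed no other call. Same-numbered control and colony arrays had a correlation of deviations of -0.16, and no crossed pairing was fitted because the numbers did not pair the arrays.

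Medians of the members moved by more than the spread between replicates under some settings. For LPS against control (2.43) the median was 2.27 with normexp, 2.17 with quantile normalization, 2.25 with median centring and 2.24 in the deposited table, and 2.37 to 2.53 with an array left out. For IL-4 against control (-1.02) it was -0.93, -1.06, -0.996 and -0.993 in that order, and -1.17 to -0.96 with an array left out. For colony cells against control (-1.69) it was -1.54, -1.53, -1.83 and -1.78, with -1.38 for the mean of all probes and -1.74 to -1.68 with an array left out. For colony cells against IL-4 (-0.92) it was -0.80, -0.82, -1.09 and -1.04, with -0.75 for the mean of all probes and -1.004 to -0.92 with an array left out. For IL-4 against LPS (-3.19) it was -2.96 with quantile normalization, -2.98 with median centring, -2.97 in the deposited table and -3.21 to -3.16 with an array left out. For colony cells against LPS (-4.07) it was -3.88 with normexp, -3.65 with quantile normalization, -4.21 for the mean of all probes and -4.12 to -3.97 with an array left out. Over the same settings, arrays left out aside, the median of all genes ran from -0.15 to 0.13 for LPS, -0.10 to 0.03 for IL-4 and -0.50 to -0.30 for colony cells against control, and the member median minus it from 2.24 to 2.42, -1.04 to -0.83 and -1.35 to -1.04.

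Signs turned for single members. With quantile normalization Usp18 was at 0.12 in colony cells against control, and Ifi47 and Oasl2 at 0.044 and 0.020 against IL-4. Ddx60 was at -0.037 against IL-4 with normexp, and Ddx58 at -0.14 with median centring and -0.088 in the deposited table. With the mean of all probes Xaf1 was at 2.20 in colony cells against control and 0.49 against LPS, where its 2 probes had opposite signs. The cause was not tested. With 2 arrays per group, 1 slide and labels that do not name separate animals, the calls describe these samples.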
